A study of Homo sapiens with 28 samples.

Results

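The late response of CHL-1 melanoma cells to the lower of the study's doses of BAY1238097 was measured on 9 of the series' 28 arrays. They were chosen by their titles alone: 5 arrays of cells given 75 nM for 24 h and 4 arrays of cells given the solvent DMSO for the same time. CHL-1 is an established human melanoma line, grown in DMEM with serum and seeded on the day before treatment, and BAY1238097 inhibits the bromodomains of the BET proteins. The submitters give 75 nM as the IC50 of the compound and 468 nM as its IC90. The other arrays (75 nM and DMSO at 4 h, and 468 nM at both times) were used to set the spread of each gene and, where named, for values side by side. All groups are the same unmodified line. Whether replicates were separate cultures is not stated, so the p-values cover only variation among these arrays, part or all of which could be technical.

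BET proteins bind acetylated lysines of histones and other proteins. They bring the elongation kinase P-TEFb to genes, and the genes most sensitive to their inhibition are often those with large enhancers, such as growth and lineage genes of a tumour. In many cells HEXIM1 RNA, which encodes an inhibitor of P-TEFb, is used as a readout that rises on BET inhibition, and MYC as one that falls.

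A value is the log2 of the intensity of a gene's probe set, and a change is the treated mean minus the DMSO mean on that scale, with its standard error (SE). Of 22357 named genes, 9285 had a log2 value above 5 on at least 4 arrays and were tested with limma; a gene was called changed at a Benjamini-Hochberg adjusted p below 0.05. Array medians lay between 2.44 and 2.49, since the deposited values had been equalised between arrays, and the correlations between arrays ran from 0.956 to 0.979. In a principal component analysis of the 9 arrays the first component, with 24.5% of the variance, placed the 5 treated arrays between -14.3 and -8.85 and the 4 DMSO arrays between 6.25 and 20.2. The labels' array numbers fall into sets of the same spacing; what these sets were is not stated, and the set that holds treated replicate 1 has no DMSO array.

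At 75 nM and 24 h, 81 of 9285 genes were called (0.872%), 37 of them higher (0.398%) and 44 lower (0.474%). Most changes were small. Only 2 of the genes called higher and 13 of those called lower moved by 2-fold or more, with median changes of 0.57 and -0.82, and the largest among called genes were 1.16 for HEXD and -1.77 for RHAG. The treated and DMSO arrays did not overlap for 76 of the 81. Over all genes tested, all 5 treated arrays were above all DMSO arrays for 269 (2.9%) and below them for 388 (4.18%). When arrays were shifted to hold reference genes level, the median change of all genes became -0.0914 and the calls were 13 higher and 72 lower, so the number of rises in particular depends on the scaling. A core of 22 genes, 12 lower and 10 higher, stayed called when each of the 9 arrays was left out in turn. This core was not proof against other settings: 8 of the 22 lost the call with no filter on dim genes (ZNF878, DCXR, PNPLA2, BPHL, DUSP6, FTL, OTULINL and INTS6L) and 6 with only the compared groups in the fit (PNPLA2, DUSP6, FTL, SHISAL1, ATP10B and PPFIBP2), 11 in all, at limma adjusted p-values from 0.0522 to 0.12. The count itself was less steady: it fell to 52, 50 and 43 without DMSO replicate 1, 2 or 3, and to 45 and 41 without treated replicate 2 or 3.

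**Figure D1:**
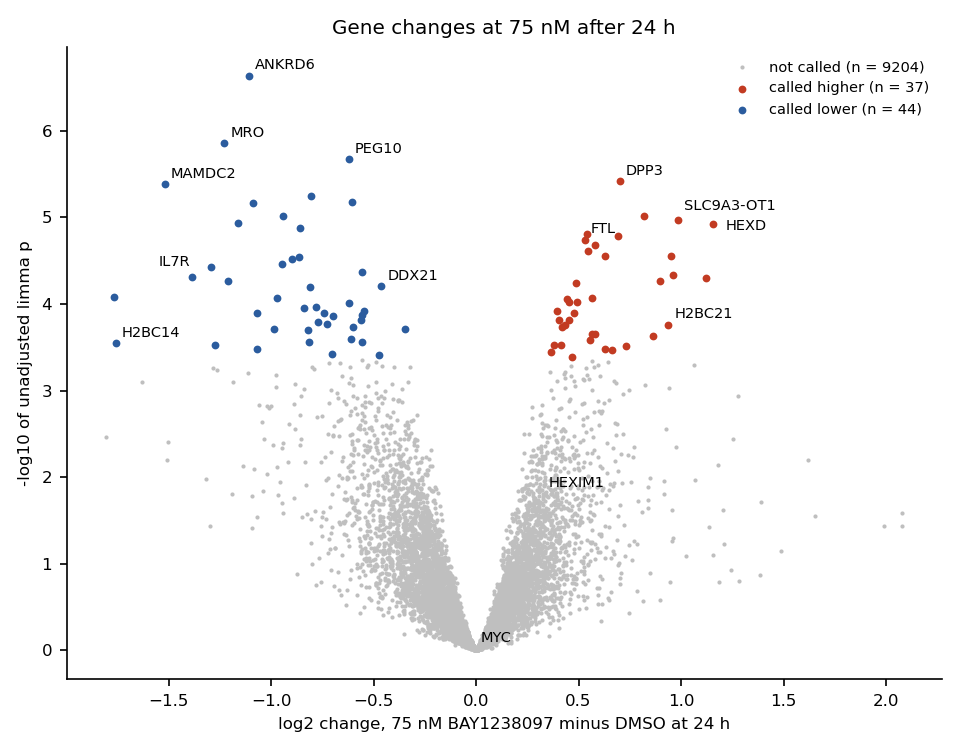
Each point is 1 of 9285 genes tested, with its log2 change at 75 nM and 24 h against DMSO on the x axis and -log10 of its unadjusted limma p on the y axis; red and blue points are the 37 genes called higher and the 44 called lower. ANKRD6 has the lowest p, the called changes lie between -1.77 and 1.16, and MYC sits at the bottom near 0.

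MAMDC2, a secreted proteoglycan, had log2 values of 5.18, 5.25, 5.54 and 5.71 on the DMSO arrays and of 4.04, 3.0, 4.04, 4.18 and 4.24 at 75 nM. All treated arrays were lower, replicate 2 by the widest margin. The change was -1.52 ± 0.26 (SE), a 2.87-fold fall (limma adjusted p = 0.00762), and since the treated mean of 3.9 lies in the dim range, its size is less certain than its direction. SCARA5, a scavenger receptor that binds ferritin, lay at 8.51, 8.05, 8.23 and 8.03 in DMSO and at 7.5, 7.46, 7.04, 7.43 and 6.89 in treated cells. The groups were again apart, and the change was -0.94 ± 0.17 (limma adjusted p = 0.0084).

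IL17RB, a receptor chain for interleukin-17B and interleukin-25, had DMSO values of 6.63, 7.2, 7.32 and 7.05. The treated values were 6.51, 6.04, 6.2, 6.29 and 6.18. The highest treated array lay only just under the lowest DMSO array, and the change was -0.81 ± 0.14 (limma adjusted p = 0.00789). GPRC5A, an orphan receptor induced by retinoic acid, had a DMSO mean of 6.53 ± 0.17 (SD, n = 4) and a treated mean of 5.37 ± 0.18 (SD, n = 5). It fell by 1.16 ± 0.21 on the log2 scale (limma adjusted p = 0.0084). ATP10B, a lipid flippase of the P4-ATPase family, fell by 0.86 (limma adjusted p = 0.00868), and SHISAL1, a membrane protein related to the Shisa family, by 1.09 (limma adjusted p = 0.00789).

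Inside the cell, ANKRD6, the ankyrin-repeat protein Diversin of the Wnt and planar polarity pathways, had the lowest p of all genes. Its DMSO values were 6.92, 6.32, 6.47 and 6.57 and its treated values 5.43, 5.37, 5.3, 5.37 and 5.82. Every treated array lay clear of every DMSO array, with a change of -1.11 ± 0.16 (limma adjusted p = 0.00214). PEG10, an imprinted gene derived from a retrotransposon, was bright and tight in DMSO at 10.56, 10.48, 10.57 and 10.47, and lower at 75 nM at 10.0, 9.8, 9.72, 10.18 and 9.79. It fell by 0.62 ± 0.10 on the log2 scale, or 1.54-fold (limma adjusted p = 0.00657).

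MRO, a nucleolar protein first described in the developing testis, fell by 1.23 ± 0.20 (limma adjusted p = 0.00642). OTULINL, a relative of the deubiquitinase OTULIN, fell from 7.89 ± 0.11 (SD, n = 4) to 6.95 ± 0.31 (SD, n = 5), with a limma adjusted p of 0.0133. PPFIBP2, a liprin adaptor, fell from 6.72 ± 0.22 to 6.12 ± 0.15 (limma adjusted p = 0.00789). INTS6L, a paralog of an Integrator subunit, fell by 0.90 ± 0.18 (limma adjusted p = 0.0122), with a treated mean of only 4.22.

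Of the 10 rises that stayed called, the largest was that of HEXD, a hexosaminidase. It had values of 3.69, 4.06, 4.19 and 4.41 in DMSO and of 5.09, 5.55, 5.16, 4.89 and 5.53 at 75 nM. The groups were apart, at a change of 1.16 ± 0.21 (2.23-fold, limma adjusted p = 0.0084), with the DMSO arrays in the dim range. DPP3, a dipeptidyl peptidase, rose from 8.08, 8.15, 7.75 and 8.07 to 8.67, 8.6, 8.79, 8.63 and 8.87. Its change of 0.70 ± 0.12 (limma adjusted p = 0.00762) was several times the DMSO SD of 0.18. DCXR, a dicarbonyl and xylulose reductase, rose by 0.69 ± 0.13, NUDT14, a hydrolase of UDP-glucose, by 0.82 ± 0.15, PNPLA2, the adipose triglyceride lipase, by 0.63 ± 0.12, and BPHL, a serine hydrolase, by 0.58 ± 0.11; limma adjusted p-values were 0.00963, 0.0084, 0.012 and 0.0107.

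DUSP6, a phosphatase that inactivates ERK, rose from 8.13, 8.26, 8.65 and 8.44 in DMSO to 8.89, 8.75, 9.0, 9.0 and 8.92. The lowest treated array was above the highest DMSO array, with a change of 0.54 ± 0.10 (limma adjusted p = 0.00954). FTL, the light chain of the iron store ferritin, was at 9.94, 10.18, 10.17 and 10.38 in DMSO and at 10.87, 10.63, 10.73, 10.65 and 10.61 in treated cells, a rise of 0.53 ± 0.10 (limma adjusted p = 0.00983). FTL has processed pseudogenes of near-identical sequence, whose transcripts the probes may not tell apart. ZNF878, a zinc finger gene, rose by 0.95 ± 0.19 (limma adjusted p = 0.012). The overlapping transcript SLC9A3-OT1 rose by 0.98 ± 0.18 (limma adjusted p = 0.0084); it lies within the span of the sodium-proton exchanger gene SLC9A3 on the same strand, and SLC9A3 itself was at 0.90 (adjusted p = 0.0163), so the transcripts may share signal.

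**Figure D2:**
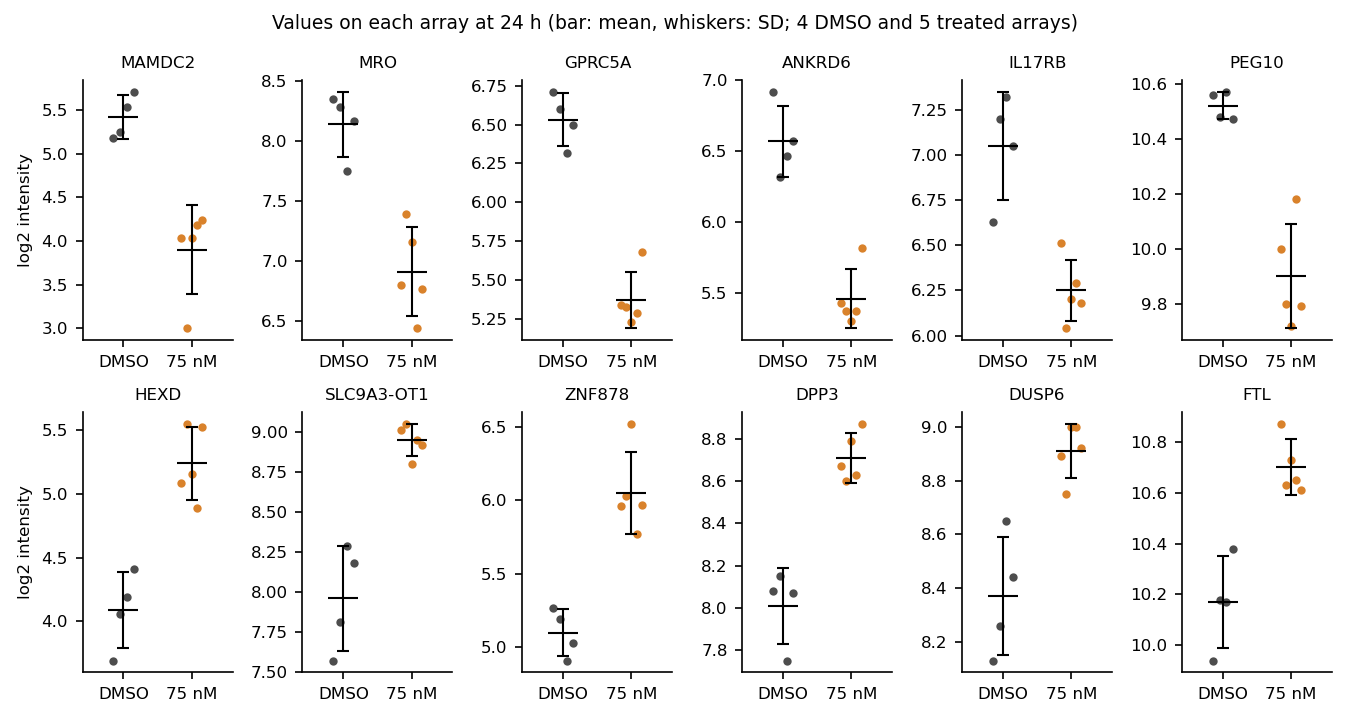
Log2 intensities of 6 genes that fell (top row) and 6 that rose (bottom row) on each of the 4 DMSO and 5 treated arrays at 24 h; horizontal bars are means and whiskers SDs, and each panel has its own axis, which does not start at 0. In every panel the points of one group lie clear of the other, most narrowly for IL17RB and DUSP6.

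Other called genes, chosen for mention after their values were seen, had roles in cell death, DNA damage and lipid turnover, but their calls were less steady. MLKL, the effector of necroptosis, was at -1.21 ± 0.25 (limma adjusted p = 0.0163), FYB1, an adhesion adaptor of blood cells, at -1.29 (adjusted p = 0.0138), and RHAG, an ammonium transporter of red cells, at -1.77 (adjusted p = 0.0213). The translesion polymerase gene POLH was at -0.62 (adjusted p = 0.0223). Among rises, ASAH1, the lysosomal acid ceramidase, was at 0.49 (adjusted p = 0.0166) and GPX4, the enzyme that reduces lipid peroxides, at 0.36 (adjusted p = 0.0429). For 15 of the 81 called genes the mean of one group was below the filter level of 5.

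Genes used elsewhere as readouts of BET inhibition were mostly not past the test at this dose and time. HEXIM1 had values of 7.33, 6.89, 6.71 and 7.1 in DMSO and of 7.12, 7.64, 7.37, 7.22 and 7.29 at 75 nM. The groups overlapped, and the difference was 0.32 with a 95% interval of 0.07 to 0.58 (limma adjusted p = 0.201). MYC was at 9.0, 8.92, 8.73 and 8.83 in DMSO and at 8.76, 9.08, 8.79, 8.74 and 8.94 in treated cells. These values were interleaved: the difference was -0.01, its sign changed when single arrays were left out, and its 95% interval ran from -0.28 to 0.26 (limma adjusted p = 0.985).

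Of the 11 readout genes tested, 1 was called higher and 1 lower, against 0.398% and 0.474% of all genes. At an unadjusted p below 0.05, 3 were higher and 2 lower (27.3% and 18.2%, against 7.11% and 8.81% of all genes). The fall was that of IL7R, the interleukin-7 receptor chain, from 7.93, 7.94, 7.14 and 7.15 to 6.2, 6.06, 6.35, 5.62 and 6.54. Its arrays did not overlap (-1.39 ± 0.28, limma adjusted p = 0.0161), and the adjusted p rose to at most 0.0631 when DMSO replicate 1 or 2 was left out. The rise was that of the histone gene H2BC21 (0.94 ± 0.21, limma adjusted p = 0.0283), which was called in 2 of the 9 fits with an array left out. FOSL1, an AP-1 subunit, was at -0.48 (adjusted p = 0.116), SERPINI1, a serine protease inhibitor, at 0.57 (adjusted p = 0.243), BCL2 at -0.07 and CCND1, cyclin D1, at 0.21 (adjusted p = 0.408).

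BET proteins and elongation factors gave 0 calls among 21 genes tested with limma, with 4 higher and 0 lower at an unadjusted p below 0.05. BRD2 was at 0.18 (95% interval 0.02 to 0.34, limma adjusted p = 0.258) and BRD3 at 0.30 (0.01 to 0.60, adjusted p = 0.306), and ELL2, an elongation factor subunit, at 0.19. The list's median of 0.071 turned to -0.005 when arrays were shifted by reference genes. Of the 8 MYC network genes tested, 0 were called and 2 were higher at an unadjusted p below 0.05; the MYC-interacting factor ZBTB17 had the lowest p, at 0.36 (adjusted p = 0.264).

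Genes of ribosome production were lower as a group, though singly almost all were below the call. The nucleolar ribosome biogenesis list holds the factors that process and assemble ribosomal RNA. Of its 81 members tested (of 90), 75 were lower in treated cells (92.6%, against 53.1% of all genes tested), and the median change was -0.186 against -0.016 over all genes. The call was reached by 1 member, where 0.474% of all genes were called lower. This member was DDX21, a helicase of RNA polymerase I transcription and rRNA processing. Its values were 9.88, 9.66, 9.8 and 9.43 in DMSO and 9.22, 9.39, 9.16, 9.29 and 9.08 at 75 nM. The highest treated array was just under the lowest DMSO array (-0.46 ± 0.10, limma adjusted p = 0.0174), and the call was lost without DMSO replicate 1 or 3 or treated replicate 3.

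At an unadjusted p below 0.05 there were 25 members lower and 0 higher (30.9% and 0.0%), where all genes gave 8.81% and 7.11%. For 12 members (14.8%) all treated arrays were below all DMSO arrays, where all genes gave 4.18%. UTP15, of the small-subunit processome, was at -0.38 (limma adjusted p = 0.0758), NOP16 at -0.55 (adjusted p = 0.172), the nucleolar regulator MYBBP1A at -0.33 (adjusted p = 0.136), and NOP58, a core protein of box C/D particles, at -0.20 (adjusted p = 0.189). These members' direction was negative and none passed the test alone.

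The list's median on each array, relative to the DMSO mean, was also apart between the groups. It was 0.01, 0.034, 0.074 and -0.067 on the DMSO arrays and -0.217, -0.159, -0.16, -0.127 and -0.21 on the treated arrays, with no overlap. Within the 4 array sets that hold both groups the median difference was -0.175, -0.186, -0.182 and -0.137. The list was chosen with a similar pattern in these data already known, so this is not independent evidence of its direction.

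Many ribosome biogenesis genes carry the E-box CACGTG, the motif that MYC binds with MAX, close to their start. In RefSeq promoters (GRCh38.p14, 250 bases before to 50 after the first listed start), CACGTG was found in 30 of 70 list members with a promoter in the table (42.9%). It was found in 785 of 7506 genes tested (10.5%) and in 7.43% of all 27305 promoters; the motif reads the same on both strands and was searched with no other motif. Among the genes called, it was in 1 of 33 called higher (3.03%) and 3 of 35 called lower (8.57%). The promoters of 3 members with the motif and a low unadjusted p are shown because they let a reader see where it sits. The E-box is in capitals. These members were picked after the values were seen and need not be the 3 with the lowest p. MYBBP1A lies at chr17:4555335-4555634 on the minus strand, with the motif beginning at base 28 when the start is counted as base 1. MRTO4, an assembly factor of the large subunit, lies at chr1:19251555-19251854 on the plus strand (motif from base 15). LTV1, an assembly factor of the small subunit, lies at chr6:143843088-143843387 on the plus strand (motif from base 29).
MYBBP1A: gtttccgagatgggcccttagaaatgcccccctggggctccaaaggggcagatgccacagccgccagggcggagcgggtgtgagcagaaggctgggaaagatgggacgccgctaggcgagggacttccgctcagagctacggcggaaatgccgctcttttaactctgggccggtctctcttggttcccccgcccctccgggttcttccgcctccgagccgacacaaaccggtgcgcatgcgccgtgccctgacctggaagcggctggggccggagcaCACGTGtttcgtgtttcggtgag
MRTO4: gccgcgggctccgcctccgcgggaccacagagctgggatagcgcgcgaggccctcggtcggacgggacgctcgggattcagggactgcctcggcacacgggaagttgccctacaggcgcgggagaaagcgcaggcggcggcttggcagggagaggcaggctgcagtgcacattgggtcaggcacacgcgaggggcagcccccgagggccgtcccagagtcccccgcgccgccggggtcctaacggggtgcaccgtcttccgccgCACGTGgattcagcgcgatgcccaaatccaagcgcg
LTV1: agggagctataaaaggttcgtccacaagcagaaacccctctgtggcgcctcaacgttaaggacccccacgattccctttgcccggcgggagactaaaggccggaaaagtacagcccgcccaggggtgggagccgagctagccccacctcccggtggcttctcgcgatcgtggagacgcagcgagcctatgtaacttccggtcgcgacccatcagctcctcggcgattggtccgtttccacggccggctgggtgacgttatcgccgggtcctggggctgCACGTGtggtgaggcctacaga
A match is a description of these letters, not evidence of binding. In these genes the change was -0.33 for MYBBP1A, -0.42 for MRTO4 and -0.28 for LTV1 (limma adjusted p = 0.136, 0.158 and 0.185), while MYC RNA itself, at -0.01, did not pass the test.

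In 4 further lists the medians were below 0 and 0 members were called. Of 31 subunits and factors of RNA polymerases I and III tested, 29 were lower, with a median of -0.207 and 0 calls by limma (8 lower and 0 higher at an unadjusted p below 0.05); POLR1H had the lowest p, at -0.61 (limma adjusted p = 0.0593). Of 33 aminoacyl-tRNA synthetases, which load amino acids onto tRNA, 28 were lower, with a median of -0.167, 0 calls (9 lower at an unadjusted p below 0.05) and IARS1 at -0.32 (adjusted p = 0.0505). Of 66 mitochondrial ribosomal protein genes, 51 were lower at a median of -0.119 and 0 calls (11 at an unadjusted p below 0.05), with MRPL15 at -0.53 (adjusted p = 0.0505), and of 17 chaperonin and heat shock genes, 16 were lower at a median of -0.112 and 0 calls (4 at an unadjusted p below 0.05), with the cochaperone gene BAG3 at -0.36 (adjusted p = 0.0657). Over all genes, 53.1% were lower and 8.81% were lower at an unadjusted p below 0.05. By array, the groups overlapped for the mitochondrial list, whose median was -0.149 on DMSO replicate 1 and -0.087, -0.066 and -0.083 on treated replicates 1, 3 and 4. They also overlapped for the chaperonin list (-0.054 on DMSO replicate 4, -0.05 on treated replicate 3). Within the array set of treated replicate 5 the polymerase list differed by only -0.02, with 18 members lower and 13 higher.

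The genes of the cytosolic ribosome's own proteins lay closer to all genes. The 49 tested had a median of -0.031, with 29 lower and 1 called lower, where 0.474% of all genes were. The call was RPL29 at -0.74 ± 0.17 (limma adjusted p = 0.0246). It was called in 3 of the 9 fits with an array left out and has near-identical pseudogenes. Oxidative phosphorylation subunits (48 tested, median -0.022, CYC1 at -0.31, adjusted p = 0.176) and splicing factors (55 tested, median 0.005, PRPF4 at -0.27, adjusted p = 0.141) had 0 calls by limma, with 3 and 1 lower and 1 each higher at an unadjusted p below 0.05. The splicing median turned to -0.07 with the shift by reference genes. Proteasome subunits were between, with 30 of 38 lower and a median of -0.095 (0 calls, 3 lower and 1 higher at an unadjusted p below 0.05); PSMB10 was at -0.58 (adjusted p = 0.114).

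**Figure D3:**
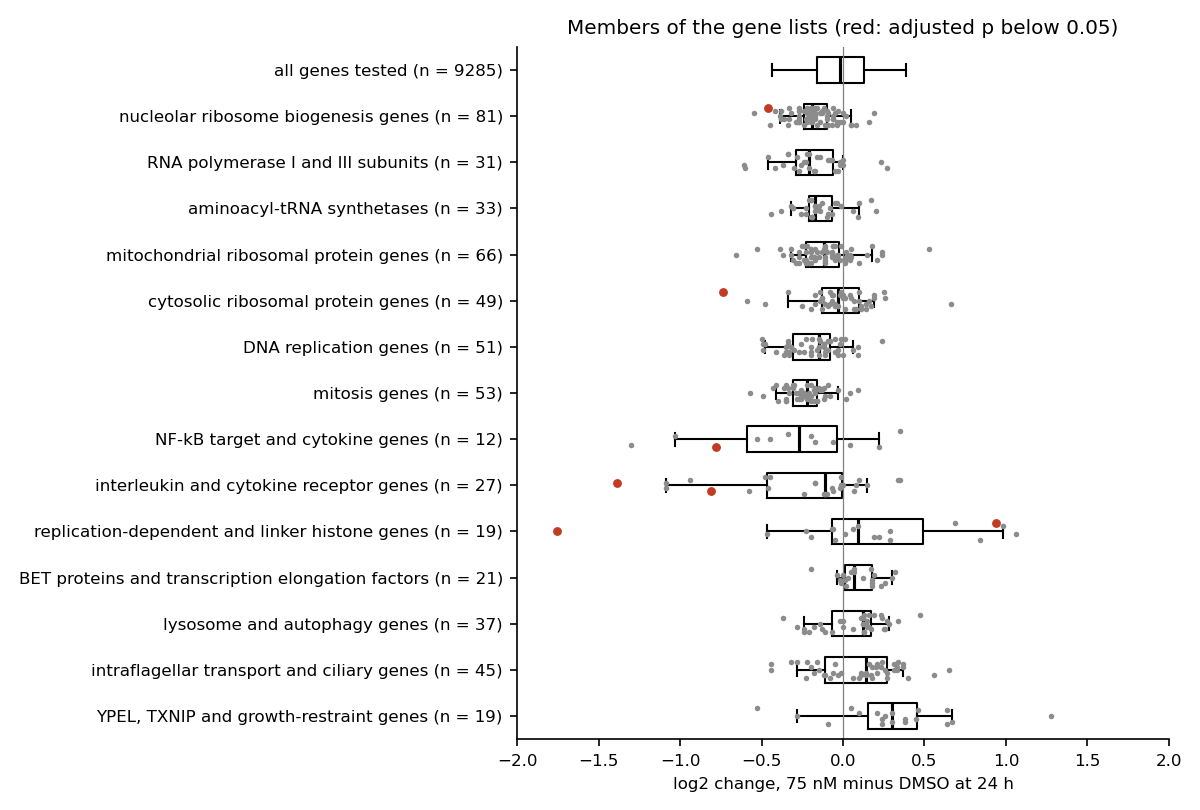
Log2 changes at 75 nM and 24 h for all genes tested and for members of 14 lists; boxes give the quartiles with the median, whiskers the 5th and 95th percentiles, grey points single members and red points members with adjusted p below 0.05. The ribosome biogenesis and mitosis boxes lie below 0 at medians of -0.186 and -0.22, and the box of YPEL, TXNIP and growth-restraint genes lies above it at 0.296.

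Lists of cell cycle genes had medians below 0 and 0 calls. Of 51 DNA replication genes tested, 46 were lower (median -0.153), 0 were called by limma, 13 were lower and 1 higher at an unadjusted p below 0.05, and MCM2, of the replicative helicase, came closest: its values were 8.53, 8.5, 8.23 and 8.07 in DMSO and 7.72, 7.99, 7.86, 7.84 and 7.82 at 75 nM. The groups did not overlap (-0.49 ± 0.13, limma adjusted p = 0.0607). Of 53 mitosis genes, 50 were lower (94.3%, against 53.1% of all genes), with a median of -0.22 and 0 calls by limma (10 lower and 0 higher at an unadjusted p below 0.05); PLK1, a mitotic kinase, was at -0.35 (adjusted p = 0.141), CCNA2, cyclin A2, at -0.41 and UBE2C, of the anaphase-promoting pathway, at -0.57 (adjusted p = 0.154 and 0.284). Of 21 G1/S regulators, 16 were lower at a median of -0.157 and 0 calls (3 at an unadjusted p below 0.05), with the repressor gene E2F8 at -0.52 (adjusted p = 0.102).

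Single arrays mattered more here than for ribosome biogenesis. The mitosis median was -0.048, 0.029, 0.199 and -0.165 on the DMSO arrays and -0.325, -0.284, -0.271, 0.047 and -0.297 on the treated arrays. Treated replicate 4 was higher than 3 of the DMSO arrays, and DMSO replicate 3, the highest, is in the same array set. Within the 4 sets the treated-minus-DMSO median was -0.234, -0.282, -0.152 and -0.132, negative in each. For DNA replication genes it was -0.182, -0.269, -0.198 and -0.07. Their array medians overlapped too, with DMSO replicate 4 at -0.156 and treated replicates 3 and 4 at -0.154 and -0.088, and the list's median was -0.105 without DMSO replicate 3 and -0.228 without DMSO replicate 4. The p53 and CDK inhibitor list had 11 of 20 genes higher, a median of 0.043 (-0.033 with the shift by reference genes) and 0 calls by limma, with 3 higher and 1 lower at an unadjusted p below 0.05. Of 18 apoptosis genes tested 0 were called (1 higher and 1 lower at an unadjusted p below 0.05), with BAK1, a pore-forming effector, at -0.40 (adjusted p = 0.205).

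Genes linked with growth restraint and quiescence had a median above 0, also with 0 calls. Like the other lists, this list was chosen with earlier results of these data known, so its direction is not independent evidence. Of 19 tested from the list of YPEL, TXNIP and related genes, 16 were higher (84.2%, against 46.9% of all genes), with a median of 0.296 and 0 calls by limma; 7 were higher and 1 lower at an unadjusted p below 0.05. SESN3, a stress-induced inhibitor of mTORC1 signalling, was at 6.75, 6.04, 6.12 and 6.45 in DMSO and at 7.1, 6.88, 7.15, 6.86 and 6.93 when treated. The groups were apart, and the difference of 0.64 ± 0.16 fell just short of the call (limma adjusted p = 0.0505). TXNIP, an inhibitor of thioredoxin and glucose uptake, was at 8.1, 7.95, 8.18 and 7.79 in DMSO and at 8.42, 8.57, 8.87, 8.64 and 8.88 at 75 nM. All treated arrays were higher (0.67 ± 0.18, adjusted p = 0.0606).

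IRS2, an insulin receptor substrate, was at 0.46 (limma adjusted p = 0.0568), the repressor gene BCL6 at 0.45 (adjusted p = 0.114), and KLF9 went the other way at -0.53 (adjusted p = 0.266). The list's median was 0.152, -0.006, -0.148 and 0.025 on DMSO arrays and 0.373, 0.424, 0.345, 0.211 and 0.441 on treated arrays, with no overlap, and within the 4 sets the difference was 0.216, 0.215, 0.356 and 0.337. Ciliary and intraflagellar transport genes had 28 of 45 higher (median 0.139, 0 calls by limma, 8 higher and 2 lower at an unadjusted p below 0.05), with BBS1, of the BBSome coat, at 0.65 (adjusted p = 0.075) and WDR19 at 0.56 (adjusted p = 0.102), while TMEM237 was at -0.44 (adjusted p = 0.0991). Lysosome and autophagy genes had 25 of 37 higher (median 0.123, 0 calls, 4 higher and 2 lower at an unadjusted p below 0.05), with the membrane protein gene LAMP2 at 0.27 (adjusted p = 0.0792) and ULK1, a kinase that starts autophagy, at 0.47 (adjusted p = 0.188). Array medians overlapped between the groups for both lists. The ciliary median was 0.088 on DMSO replicate 2 and 0.061 on treated replicate 4. The lysosome median was 0.037, 0.068 and 0.052 on DMSO replicates 1, 2 and 4 and -0.057 on treated replicate 4, and in the array set of treated replicate 3 the difference was only 0.026. Over all genes 7.11% were higher and 8.81% lower at an unadjusted p below 0.05. Small nucleolar RNA genes had 73 of 109 higher (median 0.109, 0 calls, 11 higher and 0 lower at an unadjusted p below 0.05), with SCARNA7 at 0.60 (adjusted p = 0.0991); their DMSO medians alone ran from -0.337 to 0.236.

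**Figure D4:**
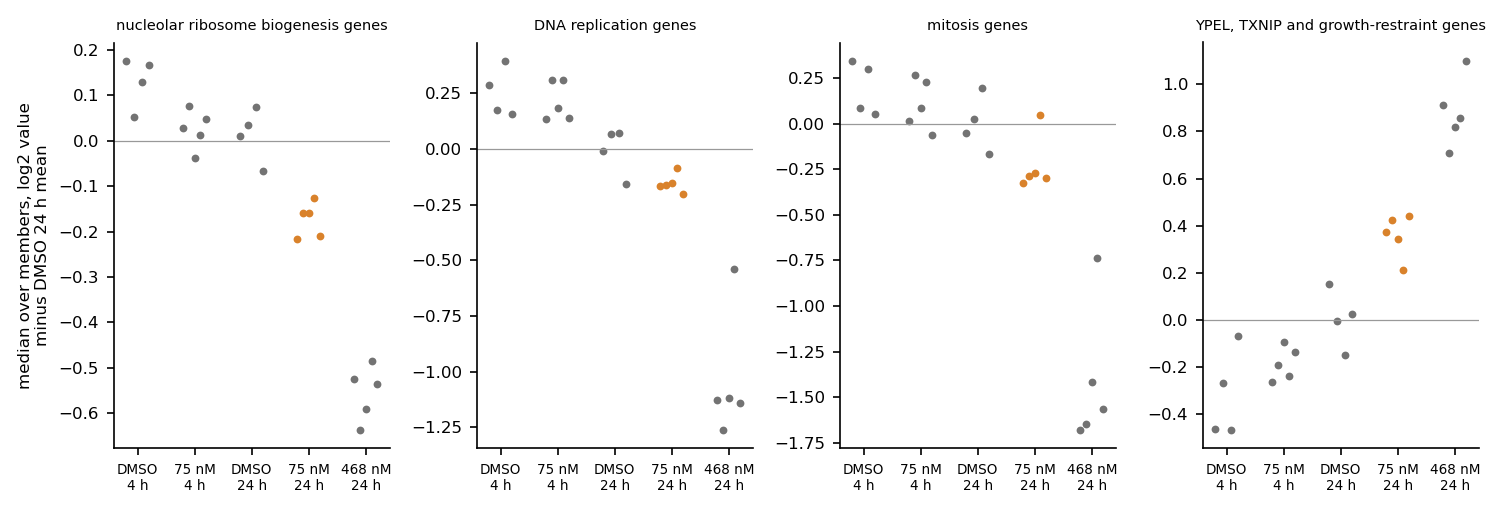
Each point is 1 array: the median, over a list's members, of the log2 value minus the member's mean in DMSO at 24 h, for DMSO and 75 nM at 4 h and for DMSO, 75 nM (orange) and 468 nM at 24 h. The treated arrays at 24 h lie apart from their DMSO arrays for ribosome biogenesis and growth-restraint genes, while 1 treated array at 0.047 lies among the DMSO arrays for mitosis genes.

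Cytokine and cytokine receptor genes are read against all genes tested, of which 53.1% were lower (median -0.016), 0.474% were called lower and 8.81% were lower at an unadjusted p below 0.05. Of 27 interleukin and cytokine receptor genes tested, 20 were lower (74.1%, median -0.106), 7 were lower at an unadjusted p below 0.05 (25.9%) and 2 were called, IL17RB and IL7R; IL6R was at -1.09 (limma adjusted p = 0.205) and IL1RL1, the receptor of interleukin-33, at -1.09 (adjusted p = 0.279). Among cytokine genes and targets of NF-kB, 9 of 12 were lower (median -0.266), 6 were lower at an unadjusted p below 0.05 and 1 was called. CSF1, the macrophage growth factor, had values of 6.74, 6.54, 7.06 and 6.62 in DMSO and of 6.36, 5.94, 5.88, 5.43 and 6.19 at 75 nM. The groups were apart (-0.78 ± 0.17, limma adjusted p = 0.0241), and the call held in 4 of the 9 fits with an array left out.

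TNFAIP3, a feedback inhibitor of NF-kB, was at -0.53 (limma adjusted p = 0.0505) and TRAF1, an adaptor of TNF receptors, at -1.03 (adjusted p = 0.114). IL6 spread widely, from 5.13 to 7.32 in DMSO and from 3.43 to 5.78 at 75 nM, and its difference of -1.30 was not past the test (adjusted p = 0.272). Of 21 interferon-stimulated genes tested, 15 were lower (median -0.176) and 0 were called by limma (1 higher and 1 lower at an unadjusted p below 0.05), and IRF9, which had the lowest p, was higher at 0.56 (adjusted p = 0.215). Of 19 MAPK feedback genes, 1 was called higher, DUSP6, where 0.398% of all genes were. DUSP7 was at -0.51 (limma adjusted p = 0.104) and SPRY1 at -0.53 (limma adjusted p = 0.365). The list's median of 0.04 turned to -0.036 with the shift by reference genes. Of 23 AP-1 and immediate early genes 0 were called (5 higher and 3 lower at an unadjusted p below 0.05), with KLF10 at -0.41 (adjusted p = 0.0748).

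Histone genes moved in both directions, more of them up. Of 19 tested, 12 were higher (63.2%, against 46.9% of all genes). H2BC21 was called higher and H2BC14 lower, where 0.398% and 0.474% of all genes were. At an unadjusted p below 0.05, 5 were higher and 1 lower (26.3% and 5.26%, against 7.11% and 8.81% of all genes). The list's array medians overlapped, at 0.111 on DMSO replicate 2 and -0.087 on treated replicate 5. H2BC14 was at 8.55, 9.3, 8.7 and 8.95 in DMSO and at 7.37, 6.13, 7.25, 6.94 and 7.89 in treated cells. Its arrays did not overlap, but the treated arrays spread widely, and the change of -1.76 ± 0.42 (limma adjusted p = 0.0378) stayed called in 1 of the 9 fits with an array left out. H2BC5 was at 1.06 (adjusted p = 0.0505) and H2AC6 at 0.69 (adjusted p = 0.0987). Histone genes of one type are near-identical copies, and how far their probes share signal is not known.

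Lineage genes were checked against the label and gave 0 calls by limma. SOX10, the neural crest factor of melanocytes, was bright at 9.48 ± 0.21 (SD, n = 4) in DMSO and 9.77 ± 0.16 (SD, n = 5) at 75 nM (limma adjusted p = 0.295), and S100B was at 7.02 and 7.07. MITF, PMEL, MLANA and TYR were below the filter, with DMSO means of 2.86, 2.84, 1.15 and 0.86. All lay in the dim range, MITF and PMEL above the array medians of 2.44 to 2.49 and MLANA and TYR below them. DCT was not analysed here. AXL, a kinase of dedifferentiated melanoma, was at 7.77 and 7.87. Of 17 lineage genes tested 1 was higher and 3 lower at an unadjusted p below 0.05 (5.88% and 17.6%). Of 21 undifferentiated-state genes 2 were higher and 5 lower (9.52% and 23.8%), where all genes gave 7.11% and 8.81%. For 3 undifferentiated-state genes (14.3%, against 4.18% of all genes) all treated arrays were below all DMSO arrays, and for 0 above. Members of that list ran from -1.3 to 0.54, the latter being CDH2, N-cadherin (limma adjusted p = 0.0564). The lineage gene TFAP2C was at -0.58 (limma adjusted p = 0.19).

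Markers of other cell types were scarce. Of 10 markers each, 0 keratinocyte markers passed the filter, and 1 each of fibroblasts (FBLN1, 5.52 in DMSO and 5.54 treated), leukocytes (CD68, 4.37 and 4.5) and endothelium (ENG, 8.31 and 7.86, limma adjusted p = 0.136) did. Among 32 matrix and adhesion genes MAMDC2 and CD44, the hyaluronan receptor (-0.73, limma adjusted p = 0.0283, called in 4 of the 9 fits with an array left out), were called lower, where 0.474% of all genes were. The list had 16 members higher and 16 lower. Of 21 cholesterol synthesis genes, 31 stress-response genes and 25 glycolysis and hypoxia genes 0 were called by limma. At an unadjusted p below 0.05, 2 cholesterol genes were higher, and 2 glycolysis and hypoxia genes were higher and 1 lower. The stress-response list leaned lower, with 22 of 31 lower and a median of -0.106. At an unadjusted p below 0.05, 7 of its members were lower (22.6%, against 8.81% of all genes) and 0 higher. Its array medians overlapped, at -0.067 on DMSO replicate 3 and -0.034 on treated replicate 5. TM7SF2 was at 0.82 (limma adjusted p = 0.0619) and DDIT4, an mTORC1 inhibitor, at -0.55 (adjusted p = 0.144). Of 71 microRNA genes 0 were called (6 higher and 2 lower at an unadjusted p below 0.05, or 8.45% and 2.82%, against 7.11% and 8.81% of all genes), with MIR3143 at 0.77 (limma adjusted p = 0.125). Of 262 ZNF genes 1, ZNF878, was called higher, a share close to the 0.398% of all genes.

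Dose was compared directly, without DMSO, by setting 468 nM against 75 nM at 24 h, where 2860 genes were called (30.8%). The higher dose against DMSO called 4231 (45.6%); it shares its DMSO arrays with the comparison at 75 nM, so their values are given side by side only. MAMDC2 was at -1.52 with 75 nM and -3.02 with 468 nM, a difference between doses of -1.50 (limma adjusted p = 4.3e-05); its mean of 2.4 at 468 nM was just under the array medians, so the size of that difference is uncertain. ATP10B was at -0.86 and -2.57, SCARA5 at -0.94 and -2.74, and IL7R at -1.39 and -4.72. DUSP6 was at 0.54 and 1.32, and FTL at 0.53 and 1.22. Each of these differed between the doses (limma adjusted p for ATP10B 7.06e-09, SCARA5 8.94e-09, IL7R 1.69e-09, DUSP6 1.01e-06 and FTL 4.49e-06).

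Of the 22 core genes, 4 did not pass the test between doses. PEG10 was at -0.62 with 75 nM and -0.63 with 468 nM, and the interval of the difference ran from -0.21 to 0.19 (limma adjusted p = 0.965). INTS6L was at -0.90 and -0.77 (interval -0.22 to 0.48, adjusted p = 0.593), ZNF878 at 0.95 and 0.80 (interval -0.51 to 0.21, adjusted p = 0.547) and NUDT14 at 0.82 and 1.01 (interval -0.09 to 0.48, adjusted p = 0.309). For PEG10 the interval leaves room for a further change of at most 0.21 in either direction, while those of the others are wider.

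Genes below the call at 75 nM included several with large values at the higher dose. HEXIM1 was at 0.32 with 75 nM and 1.30 with 468 nM (difference 0.97, limma adjusted p = 7.7e-07), TXNIP at 0.67 and 2.77 (difference 2.10, adjusted p = 1.38e-09), and E2F8 at -0.52 and -3.08 (difference -2.56, adjusted p = 9.68e-12). MYC was at -0.01 and -0.54 (difference -0.53, adjusted p = 0.00225). The median of the mitosis list was -0.22 and -1.422, that of DNA replication genes -0.153 and -0.997, that of ribosome biogenesis genes -0.186 and -0.527, and that of growth-restraint genes 0.296 and 0.941. The median of the RNA polymerase I and III list was -0.207 and -0.303.

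**Figure D5:**
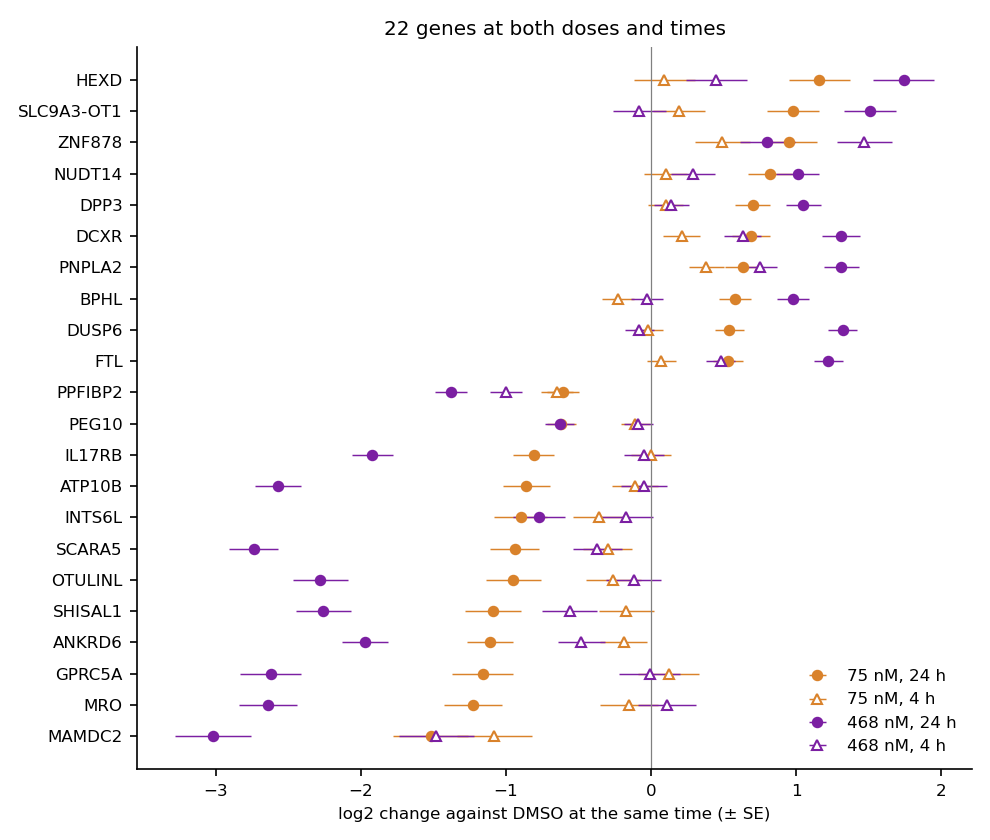
Log2 changes (± SE) against DMSO at the same time for the 22 genes that stayed called in every fit with an array left out; circles are 24 h, open triangles 4 h, orange 75 nM and purple 468 nM. The 24 h values at 468 nM lie further from 0 than those at 75 nM for most genes, but coincide for PEG10 at -0.62 and -0.63, and most 4 h values at 75 nM lie near 0.

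Time was compared with the 75 nM and DMSO arrays at 4 h, which share no array with those at 24 h; 63 genes were called at 4 h (0.679%). Both times called 6 genes, 7.41% of the 24 h list and 9.52% of the 4 h list, each in the same direction. MAMDC2 was at -1.08 at 4 h and -1.52 at 24 h, FGF7, a fibroblast growth factor, at -1.26 and -1.07, CSF1 at -0.87 and -0.78, and PPFIBP2 at -0.65 and -0.61. EPHX1, the microsomal epoxide hydrolase, was at 0.50 and 0.48, and PLAGL1, an imprinted zinc finger gene, at 0.81 and 0.57. Of the 44 genes called lower at 24 h, 41 had a change below 0 at 4 h (55.8% of all genes tested did), with a median of -0.19; of the 37 called higher, 27 were above 0 (44.2% of all genes did), with a median of 0.08. Several of the core genes were near 0 at 4 h: IL17RB at 0.00, GPRC5A at 0.12, PEG10 at -0.11, MRO at -0.15, DUSP6 at -0.02 and FTL at 0.07. They had been selected for their change at 24 h, and for none of them did the difference between times pass the test given next.

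The test of the difference between times, the effect at 24 h minus the effect at 4 h, called 3 genes (0.0323%), all higher, while 635 had an unadjusted p below 0.05. ZHX2, a zinc finger and homeobox repressor, was at -0.69 at 4 h and 0.26 at 24 h, a difference of 0.95 ± 0.15 (limma adjusted p = 0.00968). TBC1D2B, a Rab GTPase-activating protein, was at -0.73 and 0.39 (1.13 ± 0.20, adjusted p = 0.0187), and SH3RF2, an adaptor of the POSH family, at -0.59 and 0.13 (0.72 ± 0.13, adjusted p = 0.0187). These genes had fallen at 4 h and were no longer lower than DMSO at 24 h, where none of them passed the test.

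This count was sensitive to the choice of arrays and scaling: 1 gene was called without DMSO replicate 1 or 2 at 4 h or without DMSO replicate 3 at 24 h, 5 without treated replicate 5 at 4 h, and 0 with the shift by reference genes or with no filter on dim genes. HEXIM1 was at 0.85 at 4 h and 0.32 at 24 h, SERTAD1, a CDK4-binding cofactor, at 1.05 and 0.08, FGF18, a fibroblast growth factor, at 1.69 and -0.31, and GJD2, a gap junction protein, at -1.15 and -0.72, the last with a limma adjusted p of 0.0505 at 24 h. For these genes the difference between times did not pass the test (limma adjusted p = 0.469, 0.171, 0.114 and 0.786). FGF18 lay in the dim range on all DMSO and 75 nM arrays at 24 h, from 2.24 to 4.07. It passed the filter level of 5 only through arrays of other groups, so its 24 h value is uncertain.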

How the data were processed

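Total RNA of CHL-1 cells was extracted with RNeasy Plus Mini columns, labelled with biotin and hybridised to Affymetrix arrays, per the labels' protocols. The authors deposited linear intensity values made by RMA, per the submitters' processing notes. The RMA version is not given in the sources used here. The log2 of the intensity was taken. Of 53617 probe sets, 23871 name 1 gene through the platform annotation and RefSeq gene IDs, 1842 name several and 27904 none. A gene is the probe set with the highest mean among those naming it alone (663 of 22357 genes had several).

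Genes with log2 above 5 on at least 4 of 28 arrays were fitted with limma 3.58.1 in R 4.3.3 as 6 group means (22 residual degrees of freedom), with Benjamini-Hochberg adjustment over all genes tested. Groups were taken from the titles. The number of arrays limits the precision: the median SE was 0.149. Named genes were called in all fits with an array left out (up to 12 each way, of which 10 rises qualified), plus the called or lowest-p members of 40 lists, the preset readouts and markers, and the genes called between times. Other genes named were chosen after their values were seen. The comparison, members and lists were chosen with earlier results of these data known. Alternatives covered the filter, probe sets, scaling, variance model, array weights, array sets as a replicate block and leaving out each array.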

Additional observations from a re-analysis of the deposited data

Results flagged for a closer look

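In 136 groups of 4 or 5 arrays at 24 h, from 68 named genes, 11 single arrays stood apart from the rest of their group. Chance would flag about 1 in 20 such groups if they were independent. These groups share the same 9 arrays and many of the genes were named for their changes, so 11 cannot be set against that rate. In treated cells MAMDC2 was at 3.0 in replicate 2 (the others 4.04 to 4.24), GPRC5A at 5.68 in replicate 5 (5.23 to 5.34), ANKRD6 at 5.82 in replicate 5 (5.3 to 5.43) and FGF18 at 2.24 in replicate 3 (2.97 to 3.22). In DMSO, replicate 1 stood apart for FGF18 at 4.07 (2.95 to 3.04), RPL29 at 6.28 (6.61 to 6.65) and LAMP2 at 9.66 (the others 9.75). DMSO replicate 2 stood apart for OTULINL at 8.05 (7.83 to 7.85) and E2F8 at 7.75 (7.32 to 7.38), DMSO replicate 3 for H2BC21 at 5.86 (6.18 to 6.22) and DMSO replicate 4 for PRPF4 at 9.39 (9.66 to 9.69). MAMDC2, GPRC5A, ANKRD6 and OTULINL stayed called with each array left out.

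The effect of 75 nM differed between 24 h and 4 h, by limma's test of the difference, for SH3RF2 by 0.72, TBC1D2B by 1.13 and ZHX2 by 0.95.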

How the results depend on the processing

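Against 81 genes called (37 higher, 44 lower), 52 were called with only the compared groups in the fit (33 of them shared with the 81), 18 without a filter on dim genes (14 shared) and 187 with array weights (81 shared). With the array sets as a replicate block 234 were called (81 shared). The main fit did not use the sets as pairing, because what they were is not stated. The correlation of deviations between a set's treated and DMSO arrays was 0.227, 0.145, 0.252 and 0.058. Each of these treated arrays correlated best with the DMSO array of its own set, a hint from the data and not the design. Leaving out 1 array gave 41 to 87 calls. Between times, 3 genes were called, against 0 without the filter, 0 with the shift by reference genes, 7 with array weights, 11 with the replicate block and 1 to 5 with an array left out. Between doses the count of 2860 stayed within 1976 to 3200.

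With the shift by reference genes the list medians were -0.262 (ribosome biogenesis), -0.283 (RNA polymerases I and III) and -0.229 (DNA replication). With the filter at log2 7 they were -0.149 (RNA polymerases) and 0.449 (growth restraint). With an array left out they ran from -0.217 to -0.167 (ribosome biogenesis), -0.223 to -0.149 (RNA polymerases), -0.228 to -0.105 (DNA replication), -0.284 to -0.16 (mitosis) and 0.251 to 0.331 (growth restraint). Among the named genes, signs turned for MYC, SERTAD1 and FBLN1. Several list medians near 0 also turned with the shift, such as BET and elongation factors (-0.005), splicing factors (-0.07), p53 targets (-0.033) and MAPK feedback genes (-0.036). The MAPK median also turned without DMSO 4 (-0.004) or treated 5 (-0.005). The splicing median also turned with repeated quantile normalization (-0.001) and without treated 2 (-0.001), treated 4 (-0.023) or DMSO 4 (-0.011). MYC was at 0.02, 0.03, 0.0059, 0.0077 and 0.02 without treated replicate 1, DMSO 1, DMSO 2, treated 3 and treated 4, within a range of -0.07 to 0.03 with an array left out. SERTAD1 was at -0.0004 with the shift and ran from -0.03 to 0.15. FBLN1 was at -0.06 with the shift and at -0.01, -0.02, -0.02 and -0.01 without treated 1, treated 3, DMSO 3 and treated 4, and ran from -0.19 to 0.25. The causes were not tested. Dim genes limit the sizes more than the directions, since values near the bottom of the scale compress a change.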
